A study of Mus musculus with 16 samples.

Results

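The 46 genes described here code for proteins that carry a cell through G2 and mitosis: cyclins and their kinase, the spindle checkpoint, the kinetochore, spindle motors, the condensins and the machinery of cytokinesis. They were taken from the deposited table by name, as the rows whose gene name was on the list, which gave 46 of 41411 genes. The study profiled the esophagus of C57BL/6 mice by CEL-Seq, a method that reads a tag near the 3' end of each transcript, in an experimental model of eosinophilic esophagitis. The 4 groups of 4 libraries were Il13ra1-/- mice (KO) given OXA, KO mice given vehicle, wild-type mice (WT) given OXA and WT mice given vehicle. OXA is an oxazolone hapten that provokes contact allergy, and Il13ra1 is the chain that joins Il4ra in the type II IL-4 receptor, through which IL-13 signals. Whether the samples of a group came from separate animals is not said in the labels, and p-values here measure only how these samples spread.

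In most dividing cells the transcripts of these genes are low through G1, climb in S phase and reach their peak in G2 and mitosis, after which many of the proteins are destroyed through the anaphase-promoting complex. Many of the promoters are held silent in resting cells by the DREAM complex, which binds an element called CHR, and are activated by the MuvB proteins with B-MYB and FOXM1; CCAAT boxes bound by NF-Y often lie beside the CHR. In the esophagus of the mouse, cell division takes place in the basal layer of the squamous epithelium, and basal cells multiply in eosinophilic esophagitis.

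In WT mice given OXA, transcripts of 18 members that carry both a CCAAT box and a CHR match rose. Of these, the promoters of the 4 with the smallest p for that rise are shown. That of Ccnb1, which did not rise, is shown beside them because it carries both elements as well (Ccnb1 was chosen after its values were seen). Each line gives 250 bases before and 50 after the RefSeq start of the gene, 5′ to 3′ on the gene's strand, from the RefSeq table for GRCm38.p6. Ttk and Kif11 lie on the plus strand, and Top2a, Mki67 and Ccnb1 on the minus strand. Capitals mark a CCAAT box, which reads ATTGG where it lies on the other strand, or a CHR match, which is TTTGAA (read as TTCAAA from the other strand) or TTTAAA.
Ttk, chr9:83834439-83834738: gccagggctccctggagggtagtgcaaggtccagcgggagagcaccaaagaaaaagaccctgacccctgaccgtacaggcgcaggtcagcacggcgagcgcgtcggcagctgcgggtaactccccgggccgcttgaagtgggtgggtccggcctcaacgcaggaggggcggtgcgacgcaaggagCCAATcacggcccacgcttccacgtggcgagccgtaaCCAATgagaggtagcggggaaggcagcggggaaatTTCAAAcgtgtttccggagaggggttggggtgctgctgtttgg
Kif11, chr19:37376132-37376431: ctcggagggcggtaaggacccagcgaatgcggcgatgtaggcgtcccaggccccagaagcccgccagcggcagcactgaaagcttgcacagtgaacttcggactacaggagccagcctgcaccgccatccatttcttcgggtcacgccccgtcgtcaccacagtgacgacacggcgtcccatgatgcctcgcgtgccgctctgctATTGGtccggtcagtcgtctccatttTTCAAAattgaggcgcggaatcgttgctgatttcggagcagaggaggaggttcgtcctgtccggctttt
Top2a, chr11:99024140-99024439: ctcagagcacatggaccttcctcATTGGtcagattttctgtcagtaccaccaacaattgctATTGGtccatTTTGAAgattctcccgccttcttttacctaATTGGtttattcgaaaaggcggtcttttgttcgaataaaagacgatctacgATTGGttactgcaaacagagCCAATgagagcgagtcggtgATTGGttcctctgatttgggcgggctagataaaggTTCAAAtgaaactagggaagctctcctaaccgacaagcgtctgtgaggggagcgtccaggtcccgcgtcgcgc
Mki67, chr7:135716330-135716629: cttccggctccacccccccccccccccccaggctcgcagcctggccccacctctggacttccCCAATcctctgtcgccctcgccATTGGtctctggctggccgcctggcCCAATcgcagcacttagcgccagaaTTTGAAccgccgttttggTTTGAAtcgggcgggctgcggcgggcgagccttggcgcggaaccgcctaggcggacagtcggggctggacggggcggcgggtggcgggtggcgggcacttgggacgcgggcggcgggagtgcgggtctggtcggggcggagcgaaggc
Ccnb1, chr13:100786437-100786736: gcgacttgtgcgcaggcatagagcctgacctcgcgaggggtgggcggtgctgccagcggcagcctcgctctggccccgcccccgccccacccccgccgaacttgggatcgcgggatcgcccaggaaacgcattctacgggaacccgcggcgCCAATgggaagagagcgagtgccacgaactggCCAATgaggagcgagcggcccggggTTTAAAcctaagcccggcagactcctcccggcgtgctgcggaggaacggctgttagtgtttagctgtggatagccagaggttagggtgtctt

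Counted from the start site, Ttk held CCAAT boxes beginning at -65 and -28 and a CHR match at 7, inside the transcript. Kif11 held a CCAAT box at -45 and a CHR match at -19, and Ccnb1 held CCAAT boxes at -99 and -67 with TTTAAA at -42. Top2a had 6 CCAAT boxes between -227 and -58 and CHR matches at -179 and -23. Mki67 had CCAAT boxes at -188, -166 and -141 and CHR matches at -116 and -98.

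The same elements were common in the other members. RefSeq windows of 300 bases were found for 39 of the 46 genes, 42 windows in all; Aurkb, Pbk, Smc4, Incenp, Kif20a, Tpx2 and Ccna2 had none in the table. A CCAAT box on either strand was found in 76.2% of the member windows (32 of 42), and in 37.4% of all 32851 promoter windows of that table. A CHR match on either strand was found in 83.3% of member windows (35 of 42) and in 27.6% of all windows. Both together were found in 73.8% (31 of 42) and in 10.7%. An E2F-like core, GCGGGAA on either strand, was found in 2.38% (1 of 42, in Ncapg) and in 4.60%. With 1 window per gene, both elements were found in 71.8% of members (28 of 39) and in 10.9% of 27025 genes. Ect2, Prc1 and Bub3 each had 2 overlapping windows, so positions were read from the first window of each gene. There the 66 CCAAT boxes began at a median of -69.5 and the 46 CHR matches at a median of -10, and 1 pair of the 2 kinds overlapped. Of the 28 members with both elements 18 rose in WT mice given OXA, with a median log2 fold change of 0.85, and of the 11 without both 9 rose, with a median of 1.16. A match here is a run of letters and not a measured binding site.

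**Figure D1:**
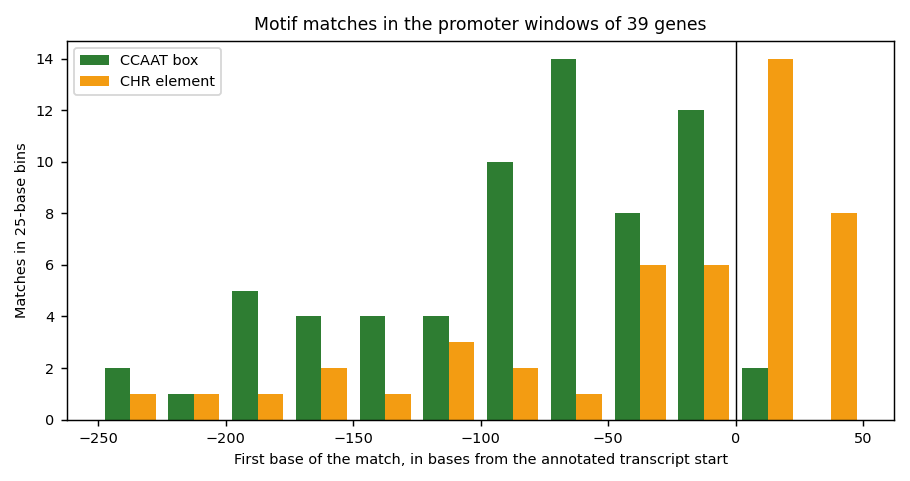
Number of CCAAT boxes and of CHR matches in the first promoter window of each of 39 members, in bins of distance from the RefSeq start (x axis, bases). CCAAT boxes gather upstream of the start, with a median first base of -69.5, and CHR matches closer to it, with a median of -10.

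Libraries held 8.82 to 15.2 M reads in KO OXA, 7.91 to 16.5 M in KO vehicle, 20.2 to 27.3 M in WT OXA and 5.61 to 9.55 M in WT vehicle (M, mega), so WT OXA was deepest. KO OXA replicate 4 had the most genes detected (23730), followed by WT OXA replicate 1 (21763), and the other 14 libraries had 16633 to 20580. Il13ra1, the targeted gene, had values of 44.0, 174, 68.1 and 110.3 in KO OXA, 31.2, 64.7, 48.7 and 55.8 in KO vehicle, 584, 673, 752 and 874 in WT OXA, and 207, 226, 197 and 134 in WT vehicle. KO libraries lay below WT libraries of the same treatment in every case. The deleted stretch is not given in the sources used here, and tags outside it would check nothing about the deletion. All values are deposited normalized counts, in which a library's reads are divided by 1 size factor; fold changes are differences of log2(value + 1), which is an understatement for low genes, and are given ± SE. Adjusted p-values come from limma across 16748 tested genes, with a threshold of 0.05, and group means are given ± SD (n = 4). All 46 members passed the filter on low values, so the counts below are over all of them.

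Relative to the WT vehicle mean of each gene, the median log2 difference over the 46 members was -0.31, -0.27, -0.27 and -0.15 in KO OXA replicates 1 to 4, and 0.09, -0.08, -0.18 and 0.14 in KO vehicle. In WT OXA it was 0.61, 0.73, 0.97 and 1.44, and in WT vehicle 0.04, -0.25, 0.18 and 0.13. The 4 WT OXA libraries thus stood above the other 12, and within them replicate 4 had the highest value of its group for 44 of the 46 members and replicate 1 the lowest for 34. The summed value of the members was 7689 to 9967 in KO OXA, 8367 to 10151 in KO vehicle, 12799 to 22189 in WT OXA and 8158 to 10910 in WT vehicle. Results that rest on WT OXA replicate 4 are given with their value without it.

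**Figure D2:**
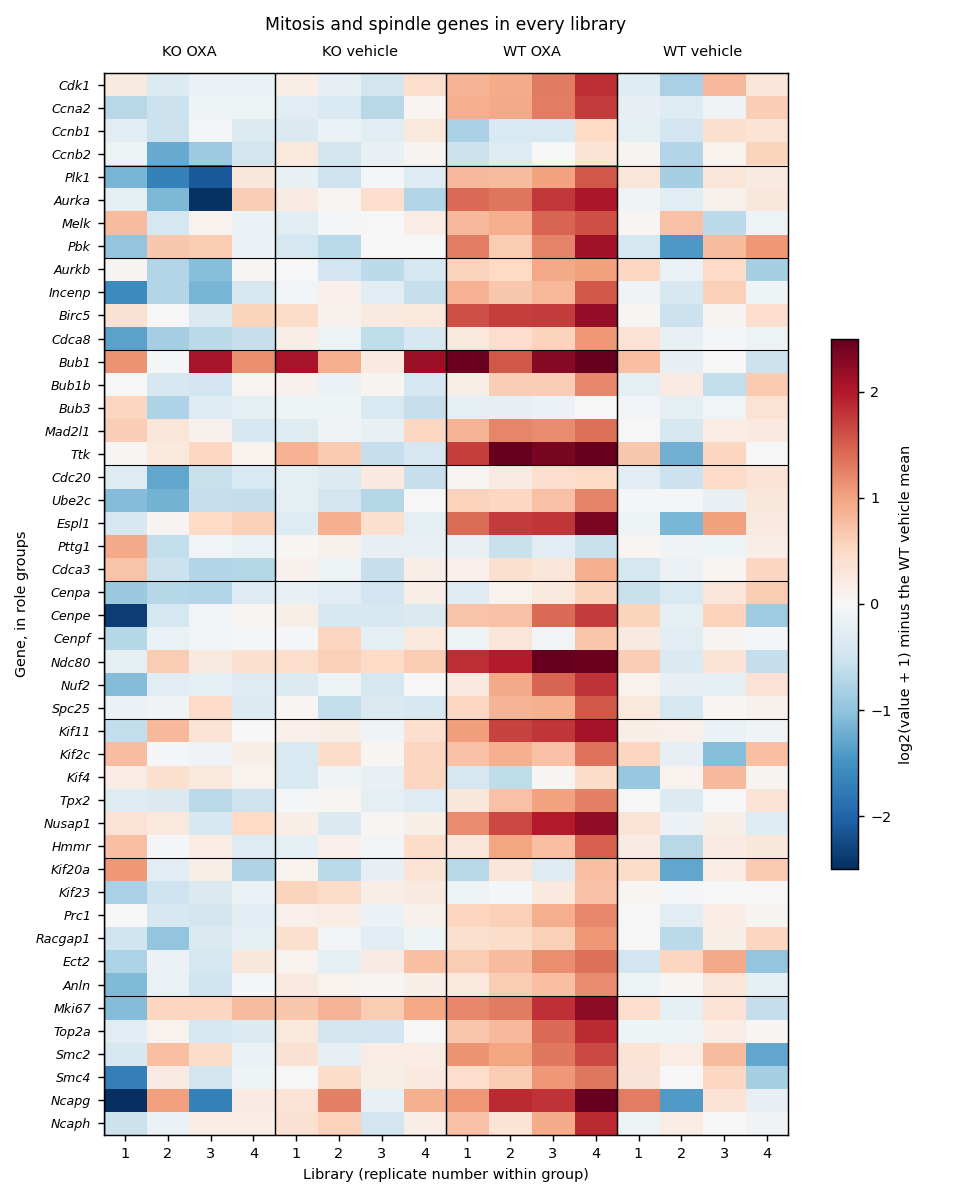
Log2 difference of each of the 46 members (rows, grouped by role) in each of the 16 libraries (columns) from the mean of the WT vehicle libraries, with the colour scale capped at its ends. The WT OXA columns are the most uniformly high, with library medians from 0.61 to 1.44, and Ccnb1, Ccnb2, Bub3, Pttg1, Kif4 and Kif20a are the rows with an OXA effect in WT of 0.01 or less.

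The first comparison asked how these genes respond to OXA in WT mice. Of the 46 members 31 rose, 0 fell and 15 did not pass. Among all tested genes the share that rose was 18% and the share that fell 16%; increases made up 53.0% of calls (77.4% with equal library totals). At an unadjusted p under 0.05, 34 members were higher and 0 lower, and edgeR and DESeq2 each called 30 higher and 0 lower after adjustment. The 31 rose by 0.59 to 2.43 on the log2 scale, that is 1.50- to 5.39-fold, and the median over all 46 members was 0.96, against 0.10 over all genes tested. In 23 members every WT OXA library lay above every WT vehicle library (18.5% of all genes did so), in 1 every WT OXA library lay below (15.7% of all genes), and in 22 the groups overlapped. In bulk tissue, more or fewer cells of a type and more or less RNA per cell cannot be told apart. The count of 31 became 20 without WT OXA replicate 4, and 30 with every library thinned to 5.61 M reads.

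Among cyclins and CDK1, the kinase that starts mitosis, 2 of 4 rose. Ccna2 (cyclin A2, chr3:36564865-36572150 in GRCm38), which works in S phase and G2, had 331, 342, 426 and 590.2 in WT OXA and 153, 141, 164 and 269.7 in WT vehicle. All WT OXA libraries lay above all WT vehicle libraries, and Ccna2 rose by 1.22 ± 0.24 (adjusted p = 0.000612). Cdk1 (chr10:69335146-69352938) had 1013, 1073, 1378 and 2027 in WT OXA and 454, 318, 979.7 and 693 in WT vehicle. The lowest WT OXA library lay just above WT vehicle replicate 3, and Cdk1 rose by 1.24 ± 0.29 (adjusted p = 0.00249). Ccnb1 (chr13:100778650-100786570), the cyclin that partners CDK1 at mitotic entry, had 129.6, 174, 175 and 324 in WT OXA and 191, 164, 299 and 287 in WT vehicle. The groups overlapped over their whole range, with a log2 fold change of -0.27 ± 0.26 (adjusted p = 0.45). Ccnb2, the other B-type cyclin here, stood at -0.12 ± 0.28 (adjusted p = 0.766). Neither B-type cyclin passed the test in any of the 5 comparisons.

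Of the 4 mitotic kinases 3 rose. Melk, a kinase of proliferating cells, had 236, 251, 369 and 409.9 in WT OXA and 138, 221, 83.9 and 123 in WT vehicle, with no overlap, and rose by 1.20 ± 0.29 (adjusted p = 0.00302). Aurka, which matures the spindle poles, averaged 211 ± 47.7 in WT OXA and 66.9 ± 11.3 in WT vehicle, and rose by 1.63 ± 0.45 (adjusted p = 0.00831). Plk1, the polo-like kinase of mitotic entry and exit, averaged 265 ± 72.0 in WT OXA and 131 ± 41.4 in WT vehicle, and rose by 1.04 ± 0.38 (adjusted p = 0.0412). Pbk, a mitotic kinase of proliferating cells, was at 1.32 ± 0.51 (adjusted p = 0.0531) and did not pass. The Plk1 call was lost without any single library of KO vehicle replicate 1, WT OXA replicates 1, 2, 3 and 4 and WT vehicle replicates 2 and 4 (adjusted p from 0.0501 to 0.133), and without a filter or trend (adjusted p from 0.0719 to 0.0771).

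The chromosomal passenger complex corrects faulty attachments of chromosomes to the spindle, and 3 of its 4 genes rose. Birc5 (survivin, chr11:117849251-117855743), which brings the complex to centromeres, had 332, 361, 365 and 498 in WT OXA and 110.2, 74.2, 113 and 147 in WT vehicle. The WT OXA values were all more than any WT vehicle value, and Birc5 rose by 1.82 ± 0.23 (adjusted p = 7.27e-06). Incenp, the scaffold of the complex, had 215, 189, 209.5 and 347 in WT OXA and 110.2, 88.1, 179 and 109 in WT vehicle, and rose by 0.98 ± 0.28 (adjusted p = 0.0108). Aurkb, its kinase, had 36.6, 34.9, 48.3 and 51.3 in WT OXA and 35.8, 21.6, 34.7 and 13.4 in WT vehicle. The Aurkb groups overlapped, and the log2 fold change was 0.76 ± 0.39 (adjusted p = 0.14). Cdca8 (borealin) rose by 0.59 ± 0.22 (adjusted p = 0.049), though its libraries overlapped. The Incenp call was lost without WT OXA replicate 4 (adjusted p = 0.0506). The Cdca8 call was lost without any single library of KO OXA replicates 2 and 3, KO vehicle replicates 2 and 4, WT OXA replicates 2, 3 and 4 and WT vehicle replicates 2, 3 and 4 (adjusted p from 0.0535 to 0.18), and without a filter or trend and with quantile normalization or array weights (adjusted p from 0.0607 to 0.0996).

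The spindle checkpoint holds anaphase until every kinetochore is attached, and 3 of its 5 genes rose. Ttk (MPS1, chr9:83834689-83872389), the kinase at the top of the checkpoint and the promoter shown first above, had 113, 195, 177 and 299.7 in WT OXA and 53.7, 13.9, 49.3 and 33.4 in WT vehicle. It rose by 2.43 ± 0.42 (adjusted p = 0.000178), the largest log2 fold change of the 46, on 1697 reads over the 4 WT OXA libraries and 90 over the 4 WT vehicle libraries. Bub1, a checkpoint kinase, was low throughout, at 22.2 ± 6.94 in WT OXA and 3.96 ± 2.03 in WT vehicle (203 and 10 reads), and rose by 2.25 ± 0.56 (adjusted p = 0.00439). Mad2l1, which inhibits Cdc20, rose by 1.16 ± 0.24 (adjusted p = 0.00092). Bub1b (BubR1) was at 0.64 ± 0.30 (adjusted p = 0.108) and Bub3, which carries Bub1 and BubR1 to kinetochores, at -0.15 ± 0.21 (adjusted p = 0.62); neither passed.

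At the step into anaphase 2 of 5 genes rose. Ube2c, the ubiquitin-conjugating enzyme that works with the anaphase-promoting complex, had 436, 417, 488 and 694 in WT OXA and 284, 281, 257 and 354 in WT vehicle, with no overlap, and rose by 0.77 ± 0.20 (adjusted p = 0.00673). Espl1 (separase), the protease that cuts cohesin, had 130.3, 166, 171 and 254 in WT OXA and 45.4, 21.6, 100.3 and 57.9 in WT vehicle. No Espl1 value was shared between the ranges, and it rose by 1.82 ± 0.39 (adjusted p = 0.00136). Cdc20, the activator of the complex at anaphase, had 82.7, 92.9, 109 and 114 in WT OXA and 66.1, 55.6, 113 and 103 in WT vehicle. Cdc20 ranges overlapped, with a log2 fold change of 0.29 ± 0.29 (adjusted p = 0.475). Pttg1 (securin), which holds separase inactive, averaged 1153 ± 152 in WT OXA and 1512 ± 127 in WT vehicle. All its WT OXA libraries lay below all its WT vehicle libraries, the only member of which this was true, and the log2 fold change of -0.40 ± 0.22 did not pass (adjusted p = 0.179, but 0.0383 with only the groups compared and 0.0352 without KO OXA replicate 1). Cdca3, a part of a mitotic ubiquitin ligase, was at 0.43 ± 0.31 (adjusted p = 0.293).

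Of 6 centromere and kinetochore genes 4 rose. Ndc80 (chr17:71496100-71526857), which grips the ends of microtubules, had 88.9, 97.5, 143 and 137 in WT OXA and 37.2, 18.5, 31.0 and 15.6 in WT vehicle. The lowest WT OXA value was more than any WT vehicle value, and Ndc80 rose by 2.20 ± 0.32 (adjusted p = 3.35e-05). Its partners in the same complex rose less: Nuf2 by 1.11 ± 0.28 (adjusted p = 0.00479) and Spc25 by 0.95 ± 0.24 (adjusted p = 0.00511), values whose differences from Ndc80 were not tested. The kinetochore motor Cenpe rose by 1.16 ± 0.44 (adjusted p = 0.0461). Cenpa, the centromeric histone, was at 0.14 ± 0.24 (adjusted p = 0.694) and Cenpf, a large kinetochore protein, at 0.20 ± 0.22 (adjusted p = 0.52); neither passed. The Cenpe call was lost without any single library of KO OXA replicate 2, KO vehicle replicates 1, 2, 3 and 4, WT OXA replicates 3 and 4 and WT vehicle replicates 2 and 4 (adjusted p from 0.0514 to 0.155), and without a filter or trend (adjusted p from 0.0829 to 0.088).

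Among 6 spindle motors and microtubule-binding genes 4 rose. Nusap1, which bundles microtubules near chromosomes, had 172, 241, 302 and 355 in WT OXA and 96.4, 68.0, 83.9 and 60.2 in WT vehicle, with no overlap, and rose by 1.76 ± 0.26 (adjusted p = 4.12e-05). Kif11 (Eg5), the motor that pushes the spindle poles apart, had 124, 193, 209.5 and 254 in WT OXA and 66.1, 64.9, 52.9 and 55.7 in WT vehicle. Again the ranges lay apart, and Kif11 rose by 1.65 ± 0.28 (adjusted p = 0.000195). Tpx2, the activator of Aurora A, rose by 0.82 ± 0.20 (adjusted p = 0.0037), and Hmmr, a spindle protein and hyaluronan receptor, by 0.89 ± 0.30 (adjusted p = 0.0281). Kif2c, which frees wrongly attached microtubules, was at 0.93 ± 0.37 (adjusted p = 0.0552) and the chromosome-bound motor Kif4 at -0.14 ± 0.31 (adjusted p = 0.761); neither passed. The Hmmr call was lost without any single library of WT OXA replicates 2 and 4 and WT vehicle replicate 2 (adjusted p from 0.0643 to 0.112), and with quantile normalization (adjusted p = 0.0542).

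Of 6 genes of the central spindle and cytokinesis 4 rose, by 0.63 to 0.99. Prc1, which crosslinks the microtubules of the central spindle, had 334, 347, 433 and 534 in WT OXA and 231, 193, 261 and 243 in WT vehicle. The ranges did not overlap, and Prc1 rose by 0.81 ± 0.18 (adjusted p = 0.0016). Anln (anillin of the contractile ring) rose by 0.71 ± 0.23 (adjusted p = 0.0226), Racgap1 by 0.63 ± 0.24 (adjusted p = 0.0483) and Ect2, the exchange factor that activates RhoA at the cleavage furrow, by 0.99 ± 0.37 (adjusted p = 0.0457), each with overlapping libraries. Kif23 (chr9:61915905-61946774), the motor that forms centralspindlin with Racgap1, had 140.1, 149, 182 and 253 in WT OXA and 158, 148, 153 and 152 in WT vehicle. The 4 WT vehicle values were close together and lay within the WT OXA range, and the log2 fold change was 0.20 ± 0.20 (adjusted p = 0.473). Kif20a, a motor that brings the passenger complex to the central spindle, was at 0.01 ± 0.44 (adjusted p = 0.99). The Anln call was lost without any single library of WT OXA replicates 3 and 4 and WT vehicle replicates 1 and 4 (adjusted p from 0.051 to 0.094). The Racgap1 call was lost without any single library of KO OXA replicate 3, KO vehicle replicates 2, 3 and 4, WT OXA replicates 2, 3 and 4 and WT vehicle replicates 1, 2 and 3 (adjusted p from 0.0536 to 0.17), and without a filter or trend and with quantile normalization, only the groups compared or thinned reads (adjusted p from 0.065 to 0.0832), and the Ect2 call without any single library of KO OXA replicates 2 and 3, KO vehicle replicates 1 and 3, WT OXA replicates 2, 3 and 4 and WT vehicle replicates 1 and 4 (adjusted p from 0.0509 to 0.168), and without a filter or trend and with quantile normalization, only the groups compared, edgeR, DESeq2 or thinned reads (adjusted p from 0.0607 to 0.0828).

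All 6 genes of chromosome structure and condensation rose. Mki67 (chr7:135689784-135716361), the source of the Ki-67 antigen that coats mitotic chromosomes, had 1013, 1094, 1583 and 2099 in WT OXA and 602, 380.1, 571 and 294 in WT vehicle, with a gap between the groups, and rose by 1.64 ± 0.33 (adjusted p = 0.000699). Top2a (chr11:98992943-99024189), the topoisomerase that untangles sister chromatids, had 1224, 1322, 2009.6 and 2737 in WT OXA and 699, 695, 856 and 769 in WT vehicle, again with a gap, and rose by 1.20 ± 0.22 (adjusted p = 0.00036). The condensin subunits rose by 1.27 ± 0.33 for Smc2 (adjusted p = 0.00648), 0.87 ± 0.33 for Smc4 (adjusted p = 0.0493), 1.84 ± 0.68 for Ncapg (adjusted p = 0.0441) and 0.97 ± 0.31 for Ncaph (adjusted p = 0.022). Smc2 and Smc4 are the paired ATPases shared by condensin I and II, and Ncapg and Ncaph belong to condensin I. The Smc4 call was lost without any single library of KO OXA replicate 3, KO vehicle replicates 1, 2, 3 and 4, WT OXA replicates 2, 3 and 4 and WT vehicle replicates 2 and 4 (adjusted p from 0.0563 to 0.181), and without a filter or trend and with a pseudocount of 0.5 (adjusted p from 0.0508 to 0.0938). The Ncapg call was lost without any single library of KO vehicle replicates 1 and 4, WT OXA replicates 2, 3 and 4 and WT vehicle replicates 2, 3 and 4 (adjusted p from 0.0509 to 0.136), and without a filter or trend and with a pseudocount of 0.5 or array weights (adjusted p from 0.0509 to 0.0935), and the Ncaph call without WT OXA replicate 4 (adjusted p = 0.105).

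**Figure D3:**
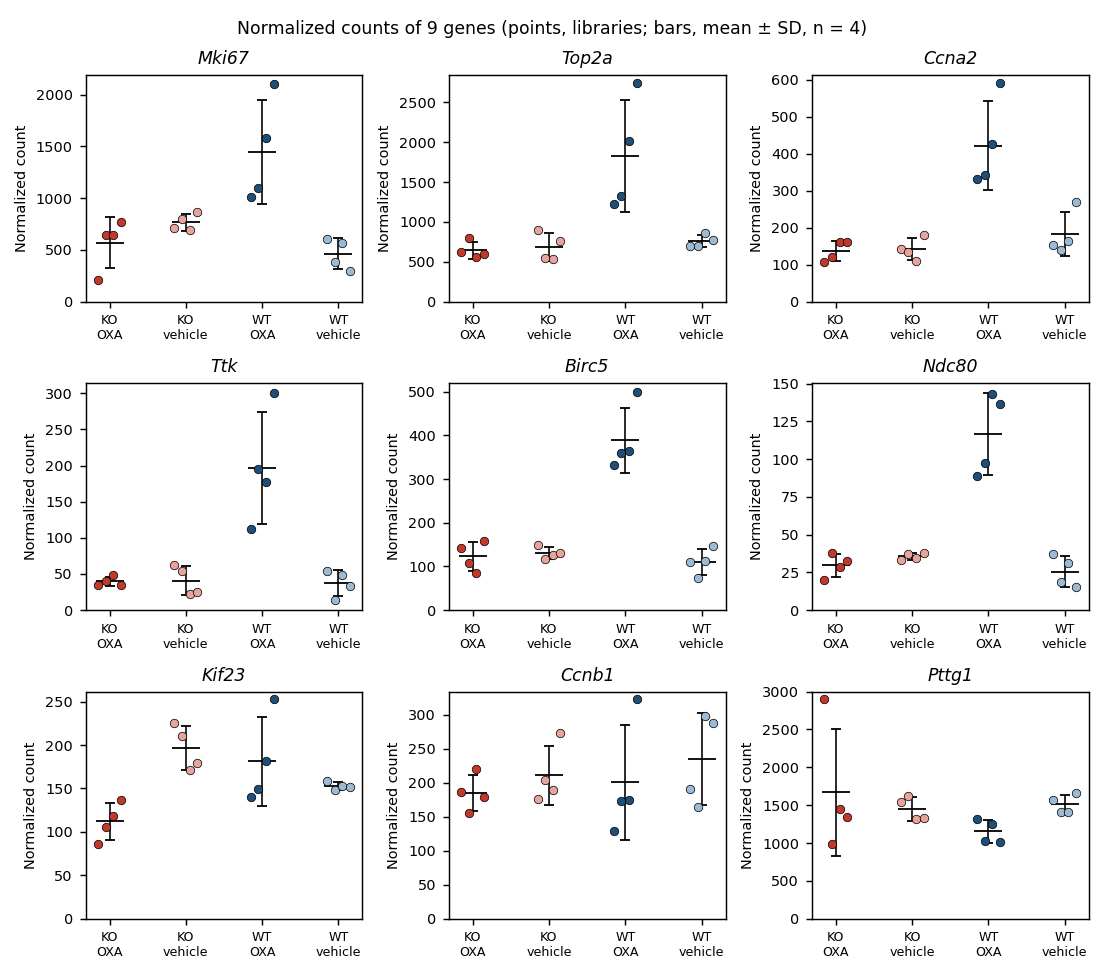
Deposited normalized counts of 9 members in each library (points) with the mean and SD of each group, from KO OXA at the left to WT vehicle at the right. Birc5, Ndc80, Ttk, Ccna2, Top2a and Mki67 are highest in the 4 WT OXA libraries, while the Ccnb1 groups overlap and Kif23 is lowest in KO OXA, at 86.2 to 137.

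The second comparison asked whether the same genes respond to OXA in KO mice. Of the 46 members 0 rose and 1 fell, while 1.81% of all genes rose and 0.0896% fell. The median over the members was -0.23, against -0.01 over all genes, and log2 fold changes ran from -1.38 to 0.32. At an unadjusted p under 0.05, 0 members were higher and 9 were lower, and edgeR and DESeq2 each called 0 higher and 1 lower after adjustment. All KO OXA libraries lay below all KO vehicle libraries in 3 members (Kif23, Tpx2 and Anln; 2.94% of all genes) and above them in 0 (3.93% of all genes).

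Kif23 was the member that fell in KO. It had 86.2, 106, 119 and 137 in KO OXA and 225, 211, 171 and 179 in KO vehicle, so that every KO OXA value was below every KO vehicle value, and fell by 0.82 ± 0.20 (adjusted p = 0.0416). That call was lost without any single library of KO OXA replicates 1, 2 and 3, KO vehicle replicates 1, 2, 3 and 4, WT OXA replicates 2 and 3 and WT vehicle replicates 1 and 3 (adjusted p from 0.0516 to 0.159), and without a filter or trend and with only the groups compared (adjusted p from 0.0512 to 0.0872). Plk1, at 68.4 ± 56.8 in KO OXA and 104 ± 14.1 in KO vehicle, did not pass (-0.90 ± 0.38, adjusted p = 0.286), but did without KO OXA replicate 4 (adjusted p = 0.00882), whose value of 152 was the highest of its group. No other member passed. Ccna2 had 108, 121, 162 and 159.9 in KO OXA and 143, 134, 109 and 181 in KO vehicle (-0.04 ± 0.24 (adjusted p = 0.965)). Top2a had 622, 794, 557 and 597 in KO OXA and 899, 548, 540.2 and 755 in KO vehicle (-0.07 ± 0.22 (adjusted p = 0.922)). In both genes the 2 ranges overlapped. Mki67 had 209, 647, 644 and 769 in KO OXA and 712, 800.0, 687 and 869.9 in KO vehicle (-0.59 ± 0.33 (adjusted p = 0.443)), with KO OXA replicate 1 far below the other 7 libraries. Cdk1 had 653, 441, 507 and 499 in KO OXA and 632, 482, 406 and 762 in KO vehicle (-0.09 ± 0.29 (adjusted p = 0.922)), and Birc5 had 141, 108, 84.2 and 158 in KO OXA and 149, 116, 126 and 129.7 in KO vehicle (-0.12 ± 0.23 (adjusted p = 0.868)). These ranges overlapped too.

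The interaction tests whether the OXA effect differed between KO and WT, as the KO effect minus the WT effect. It was negative in 25 of the 46 members and positive in 0, while 7.67% of all genes passed with a negative value and 10.1% with a positive one (56.9% of calls positive, and 20.3% with equal library totals). At an unadjusted p under 0.05 it was negative in 30 and positive in 0, and adjusted calls were 25 and 0 with edgeR and 26 and 0 with DESeq2. The 25 values ran from -3.22 to -0.99, and the median over all members was -1.20, against -0.10 over all genes. By role, the 25 were 2 of 4 among cyclins and CDK1, 2 of 4 kinases, 3 of 4 passenger genes, 3 of 5 checkpoint genes, 2 of 5 at the step into anaphase, 2 of 6 kinetochore genes, 3 of 6 spindle genes, 4 of 6 cytokinesis genes and 4 of 6 of chromosome structure. Without WT OXA replicate 4 the interaction was negative in 17 members, and with equal library totals in 35.

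The 8 members with the smallest p came from 6 of these roles. For Birc5 the log2 fold change was -0.12 in KO and 1.82 in WT, a difference of -1.94 ± 0.33 (adjusted p = 0.000467). Ndc80 stood at 20.2, 38.1, 28.5 and 32.3 in KO OXA and 33.1, 37.1, 34.2 and 37.8 in KO vehicle, within 1 range, and its difference was -2.48 ± 0.45 (adjusted p = 0.000922). For Mki67 it was -2.23 ± 0.46 (adjusted p = 0.00261), where both the WT increase and the unpassed KO value of -0.59 enter. Prc1 had 233, 175, 168 and 193 in KO OXA and 251, 262, 207 and 248 in KO vehicle, with overlap, and a difference of -1.14 ± 0.25 (adjusted p = 0.00389). Ube2c had 138, 127, 194 and 192 in KO OXA and 249, 212, 177 and 289 in KO vehicle, again with overlap (-1.28 ± 0.29, adjusted p = 0.00493). Incenp had 38.5, 70.2, 52.0 and 89.0 in KO OXA and 111, 128, 97.4 and 78.8 in KO vehicle (-1.75 ± 0.40, adjusted p = 0.00506). Only KO OXA replicate 4 of Incenp reached into the KO vehicle range. Nusap1 had 97.2, 91.7, 56.9 and 107 in KO OXA and 85.8, 58.7, 77.6 and 83.7 in KO vehicle (-1.57 ± 0.37, adjusted p = 0.00593). Kif11 had 38.5, 106, 75.5 and 59.9 in KO OXA and 65.3, 66.5, 56.3 and 80.4 in KO vehicle (-1.67 ± 0.40, adjusted p = 0.00724), and in both genes the KO ranges overlapped.

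Among the other 17, the differences were -1.26 for Ccna2, -1.27 for Top2a, -2.33 for Ttk, -2.41 for Aurka, -1.94 for Plk1 and -1.02 for Kif23. Kif23 was the member whose difference came with no call in WT and a call in KO. The most negative value, -3.22 ± 0.97 for Ncapg (adjusted p = 0.0264), belonged to a low gene with 16.5 ± 16.7 in KO OXA, 29.7 ± 12.7 in KO vehicle, 72.8 ± 31.5 in WT OXA and 22.7 ± 16.7 in WT vehicle. Of the 25 calls 17 held under every alternative run and 8 did not. Cdk1 (-1.33) was lost without any single library of KO vehicle replicates 1 and 4, WT OXA replicates 3 and 4 and WT vehicle replicates 1 and 2 (adjusted p from 0.0501 to 0.0631), and without a filter or trend (adjusted p from 0.059 to 0.0679). Bub1 (-2.51) was lost without any single library of KO OXA replicate 2, KO vehicle replicates 1 and 4, WT OXA replicates 1, 3 and 4 and WT vehicle replicate 4 (adjusted p from 0.0568 to 0.0776), and without a filter or the 2 OXA libraries with the most genes detected and with quantile normalization or array weights (adjusted p from 0.072 to 0.0862). Mad2l1 (-0.99) was lost without any single library of KO OXA replicates 3 and 4, KO vehicle replicates 2, 3 and 4, WT OXA replicates 2, 3 and 4 and WT vehicle replicates 1, 2 and 3 (adjusted p from 0.0525 to 0.0989), and without a filter, trend or the 2 OXA libraries with the most genes detected and with quantile normalization or thinned reads (adjusted p from 0.0584 to 0.0924). Espl1 (-1.81) was lost without any single library of KO OXA replicate 1, KO vehicle replicates 2 and 3 and WT OXA replicate 4 (adjusted p from 0.0548 to 0.0667), and without a filter or trend (adjusted p from 0.0504 to 0.0553). Nuf2 (-1.37) was lost without any single library of WT OXA replicates 3 and 4 (adjusted p from 0.0519 to 0.0552), and Racgap1 (-1.14) without any single library of KO vehicle replicate 1 and WT OXA replicate 4 (adjusted p from 0.0589 to 0.0634), and without trend (adjusted p = 0.0514). Smc4 (-1.60) was lost without WT OXA replicate 4 (adjusted p = 0.0504), and without trend (adjusted p = 0.0581), and Ncapg without any single library of KO OXA replicates 1 and 3, KO vehicle replicate 2 and WT OXA replicate 4 (adjusted p from 0.0528 to 0.0567), and without a filter or trend and with edgeR (adjusted p from 0.0523 to 0.0629).

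**Figure D4:**
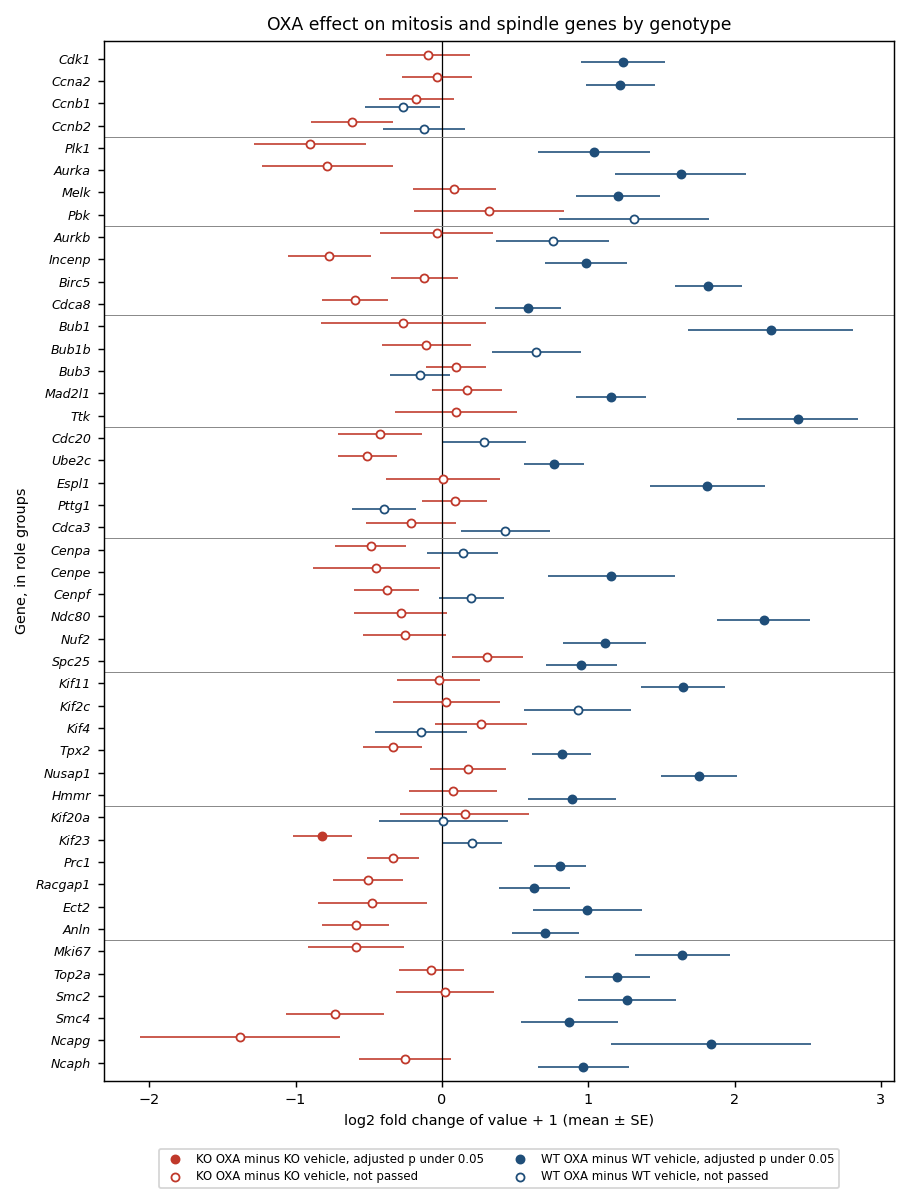
Log2 fold change of OXA against vehicle in KO and in WT for each of the 46 members, with SE as bars. WT values reach from -0.40 to 2.43 and KO values from -1.38 to 0.32. Filled points mark OXA effects in that genotype with an adjusted p under 0.05, and open points those that did not pass.

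Under OXA, KO and WT mice were also compared directly. Of the 46 members 34 were lower in KO and 0 higher, while 12.9% of all genes were lower and 14.6% higher (53.1% of calls higher, and 19.9% with equal library totals). At an unadjusted p under 0.05, 37 were lower and 0 higher; edgeR called 35 lower and DESeq2 36, and each called 0 higher. The 34 values ran from -2.65 to -0.67, and the median over all members was -1.18, against -0.05 over all genes. In 33 members every KO OXA library lay below every WT OXA library, as in 15.3% of all genes; Cenpa passed the test with overlapping groups. This comparison shares the WT OXA libraries with the WT effect above and the KO OXA libraries with the KO effect, so it is not a separate line of evidence.

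All 4 passenger genes were lower in KO OXA than in WT OXA. Aurkb, which had not passed in WT, had 25.7, 14.3, 11.1 and 25.2 in KO OXA and 36.6, 34.9, 48.3 and 51.3 in WT OXA, without overlap, a log2 fold change of -1.19 ± 0.39 (adjusted p = 0.027). Incenp was at -1.95 ± 0.28 (adjusted p = 3.68e-05) and Birc5 at -1.68 ± 0.23 (adjusted p = 2.08e-05). Cdc20 had 64.2, 32.1, 54.5 and 62.2 in KO OXA and 82.7, 92.9, 109 and 114 in WT OXA, also without overlap, at -0.93 ± 0.29 (adjusted p = 0.0204). Ube2c, which conjugates ubiquitin for the same complex, was at -1.63 ± 0.20 (adjusted p = 7.32e-06), and separase Espl1 at -1.63 ± 0.39 (adjusted p = 0.0037). All 6 genes of chromosome structure were lower, with Top2a at -1.44 ± 0.22 (adjusted p = 6.9e-05), Mki67 at -1.44 ± 0.33 (adjusted p = 0.00242) and Ncapg at -2.65 ± 0.68 (adjusted p = 0.00658). Of the others, Kif11 was at -1.51 ± 0.28 (adjusted p = 0.000498) and the kinases Aurka and Plk1 at -2.43 ± 0.45 (adjusted p = 0.000414) and -2.21 ± 0.38 (adjusted p = 0.000228). Ccnb1 had 187, 156, 220.3 and 179 in KO OXA and stood at -0.04 ± 0.26 (adjusted p = 0.936), and Pttg1, at 1668 ± 842 in KO OXA and 1153 ± 152 in WT OXA, at 0.42 ± 0.22 (adjusted p = 0.171), higher in KO only without KO OXA replicate 2 (adjusted p = 0.0288).

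Of the 34 calls 27 held under every alternative run. Aurkb was lost without any single library of KO OXA replicates 2 and 3 and WT OXA replicates 3 and 4 (adjusted p from 0.0626 to 0.0916), and without a filter (adjusted p = 0.0592). Bub1b (-0.86 ± 0.30 (adjusted p = 0.0408)) was lost without any single library of KO OXA replicates 2 and 3 and WT OXA replicates 2, 3 and 4 (adjusted p from 0.0746 to 0.146), and without a filter and with thinned reads (adjusted p from 0.0643 to 0.136), and Cdc20 without any single library of KO OXA replicate 2 and WT OXA replicates 3 and 4 (adjusted p from 0.0579 to 0.0724), and with thinned reads (adjusted p = 0.0612). Cenpa (-0.82 ± 0.24 (adjusted p = 0.0165)) was lost without any single library of KO OXA replicate 1 and WT OXA replicate 4 (adjusted p from 0.0503 to 0.0639), and Kif23 (-0.67 ± 0.20 (adjusted p = 0.0185)) without any single library of KO OXA replicate 1 and WT OXA replicate 4 (adjusted p from 0.0593 to 0.086). Smc2 (-1.10 ± 0.33 (adjusted p = 0.018)) was lost without any single library of KO OXA replicate 1 and WT OXA replicate 4 (adjusted p from 0.0588 to 0.0671), and without the 2 OXA libraries with the most genes detected (adjusted p = 0.064), and Ncaph (-1.05 ± 0.31 (adjusted p = 0.0157)) without any single library of KO OXA replicate 1 and WT OXA replicate 4 (adjusted p from 0.0511 to 0.0767), and with array weights (adjusted p = 0.0501).

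Under vehicle, limma called 0 of the 46 members different between KO and WT, while 0.0597% of all genes passed in either direction. The median over the members was -0.02. At an unadjusted p under 0.05, 2 members were higher in KO (Mki67 and Bub1) and 0 lower, and edgeR and DESeq2 called 0 after adjustment. Bub1 was at 1.34 ± 0.56 (adjusted p = 0.507), on 46 reads in KO vehicle and 10 in WT vehicle. Its difference between KO and WT under OXA, -1.17 ± 0.56, did not pass (adjusted p = 0.133). All KO vehicle libraries lay above all WT vehicle libraries in 2 members (2.66% of all genes), Mki67 and Kif23. Mki67 had 712, 800.0, 687 and 869.9 in KO vehicle and 602, 380.1, 571 and 294 in WT vehicle, at 0.79 ± 0.33 (adjusted p = 0.506), and Kif23 was at 0.35 ± 0.20 (adjusted p = 0.605).

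Other genes of the same processes, from lists that hold none of the 46, were read beside them. Among all genes tested, 18% rose and 16% fell in WT. In WT, 19 of 33 other kinetochore and checkpoint genes rose and 0 fell (at an unadjusted p under 0.05, 21 and 1; with edgeR 19 and 0, and with DESeq2 20 and 1), with a median log2 fold change of 1.24. Knl1, the scaffold that recruits the checkpoint, rose by 3.60 ± 0.44 (adjusted p = 5.31e-06) and Cenph of the inner kinetochore by 2.59 ± 0.34 (adjusted p = 1.25e-05). Mis18a, which is needed for the loading of the centromeric histone, rose by 1.58 ± 0.27 (adjusted p = 0.000187). Of 28 other spindle and cytokinesis genes 13 rose and 0 fell (unadjusted 15 and 0, edgeR and DESeq2 14 and 0), with a median of 0.90. They were led by the motor Kif15 at 2.28 ± 0.24 (adjusted p = 8.32e-07), the midbody protein Cep55 at 2.24 ± 0.31 (adjusted p = 1.84e-05) and the RhoA regulator Arhgap11a at 1.51 ± 0.27 (adjusted p = 0.000305). Of 14 other condensin and cohesin genes 9 rose and 1 fell, with a median of 0.72: Ncapg2 of condensin II rose by 2.65 ± 0.34 (adjusted p = 8.32e-06), the cohesin regulator Pds5a by 1.14 and the cohesin subunit Rad21 by 0.71, while Ncaph2, chosen after its value was seen, fell by 0.71 (with equal library totals by 0.39, adjusted p = 0.057). Of 19 G2/M regulators 11 rose and 1 fell, with a median of 0.91. Mastl, the kinase that keeps mitotic phosphates in place, rose by 2.32 ± 0.31 (adjusted p = 1.54e-05), the CDK subunit Cks1b by 1.48 and the MuvB subunit Lin54, which binds the CHR, by 1.35. Lin37, another MuvB subunit, was the one that fell, by 1.28 (adjusted p = 0.00174). Of 32 DNA replication genes tested (33 listed) 21 rose and 1 fell, with a median of 1.30.

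The anaphase-promoting complex, which ends mitosis, and genes that hold the cycle back had calls in both directions in WT. All genes tested did too, with 18% higher and 16% lower. Of 14 genes of the anaphase-promoting complex 2 rose and 5 fell, with a median of -0.24. Its cullin-like subunit Anapc2 fell by 1.14 ± 0.14 (adjusted p = 4.31e-06), Cdc16 was at -0.95 ± 0.14 (adjusted p = 5.25e-05) and Anapc13 at -0.93 ± 0.16 (adjusted p = 0.000256), each with no overlap between the groups. Of 10 CDK inhibitors and genes of quiescence tested (11 listed) 2 rose and 4 fell, with a median of -0.48. Cdkn1a (p21) averaged 4267 ± 771 in WT OXA and 10435 ± 1087 in WT vehicle, and fell by 1.30 ± 0.20 (adjusted p = 6.87e-05). Cdkn2c (p18) was at -1.52 ± 0.25 (adjusted p = 0.000135) and Cdkn2b (p15) at -1.56 ± 0.30 (adjusted p = 0.00053). Rbl2, a gene of quiescence named after its value was seen, was the other one of that list that fell, by 0.76 ± 0.15 (adjusted p = 0.000641). With equal library totals the median of all genes moved by 0.31 in this comparison, and 3 genes of the anaphase-promoting complex rose and 3 fell. The count that fell among CDK inhibitors and genes of quiescence stayed at 4, with Rbl2 lower by 0.44 (adjusted p = 0.0357).

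In KO mice, where 1.81% of all genes tested rose and 0.0896% fell, these lists had few or no calls. In the 6 lists other than DNA replication, limma called 0 of 118 genes (unadjusted p under 0.05 in 9, 4 of them higher; edgeR called 0, DESeq2 1 lower). Their medians were -0.37 for other spindle genes, -0.13 for CDK inhibitors and genes of quiescence and -0.05 for the anaphase-promoting complex. They were -0.04 for other condensin and cohesin genes, -0.02 for G2/M regulators and 0.12 for other kinetochore genes. Of 32 DNA replication genes 1 rose (5 with DESeq2), Gins1 of the replication helicase (1.32 ± 0.32 (adjusted p = 0.0329); named after its value was seen), and the median was 0.39, beside -0.23 for the 46 members. The interaction, which was negative in 7.67% and positive in 10.1% of all genes, was negative for 12 of 28 other spindle genes and positive for 0 (unadjusted 15 and 0, edgeR and DESeq2 12 and 0, and 18 and 0 under equal library totals). It was negative for 7 of 33 other kinetochore genes, 6 of 19 G2/M regulators, 5 of 14 condensin and cohesin genes and 10 of 32 DNA replication genes, and positive for 1 gene of each of these lists (Zw10, Lin37, Ncaph2 and Gins2, named after their values were seen). With equal library totals it was positive for 0 of the genes in those 4 lists. Of 10 CDK inhibitors and genes of quiescence it was negative for 1 (Rb1, -0.86 ± 0.30 (adjusted p = 0.0496), named after its value was seen) and positive for 4, among them Cdkn2c at 1.76 ± 0.36 (adjusted p = 0.00229) and Cdkn1a at 0.99 ± 0.29 (adjusted p = 0.0211). Of 14 genes of the anaphase-promoting complex it was positive for 3, among them Cdc16 at 1.23 ± 0.20 (adjusted p = 0.000429), and negative for 0 (unadjusted 1, edgeR and DESeq2 0). With equal library totals, which moved the interaction's median over all genes by -0.43, it was positive for 1 and negative for 3 in each of these 2 lists.

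**Figure D5:**
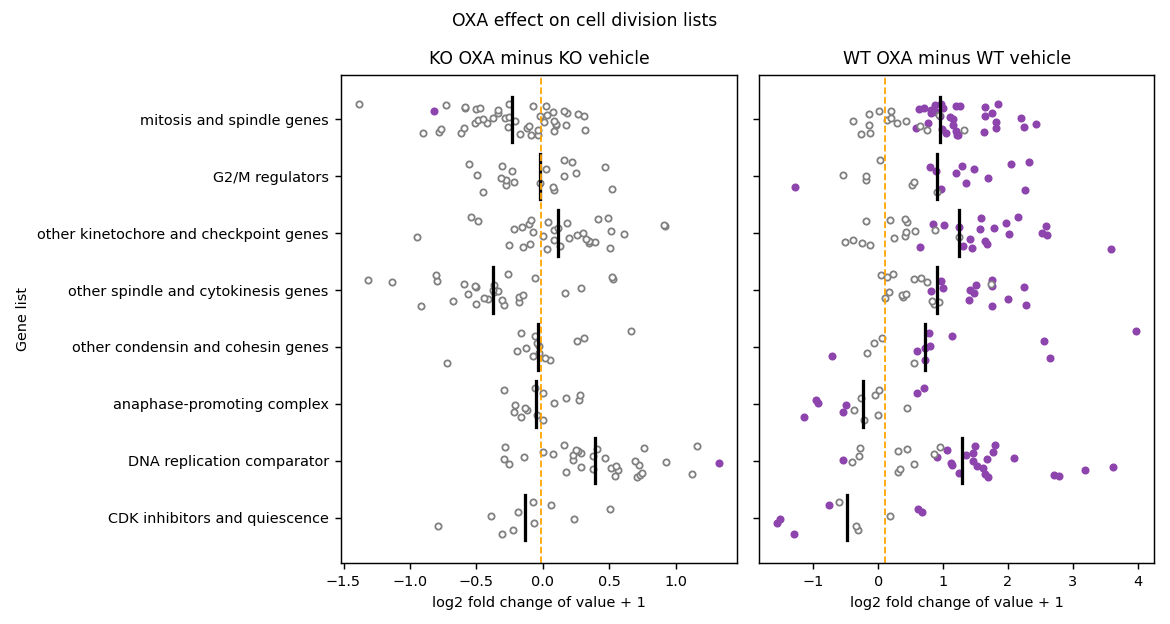
Log2 fold change of OXA against vehicle for each tested gene of the 46 members and of the other lists, in KO and in WT. Filled points passed the test, black bars mark list medians and dashed lines the median of all genes. In WT the members' median is 0.96 and that of the CDK inhibitors and genes of quiescence -0.48.

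Markers of cell types in the tissue moved with OXA too. Beside them, 18% of all genes tested rose in WT and 16% fell, and in KO 1.81% rose and 0.0896% fell. All 8 T cell markers rose in WT (Cd4 by 4.76, Lck by 3.83 and Cd2 by 2.06). In KO limma called 0 of them, though all 8 log2 fold changes were positive (0.99 to 3.56). The interaction was negative for 1 of the 8, beside 7.67% of all genes. Their summed value was 82.9 to 541 in KO OXA, 36.1 to 205 in KO vehicle, 570 to 846 in WT OXA and 44.8 to 180 in WT vehicle. All 6 endothelial markers rose in WT, and 0 passed in KO with limma, edgeR or DESeq2 (unadjusted p under 0.05 in 3, each lower); their sums were 431 to 812 in KO OXA, 719 to 950.3 in KO vehicle, 1272 to 2107 in WT OXA and 825 to 883 in WT vehicle (Pecam1 rose by 1.17, Vwf by 0.96 and Emcn by 0.89). Macrophage and dendritic cell markers numbered 8, of which 4 rose in KO and 6 in WT, with sums of 7484 to 15530 in KO OXA, 2864 to 4163 in KO vehicle, 10619 to 11589 in WT OXA and 4948 to 6842 in WT vehicle. H2-Ab1 rose by 2.20 in KO and 1.52 in WT. Of 5 B and plasma cell markers tested (6 listed) 1 rose in WT (Jchain, by 4.98), with sums of 50.4 to 2036 in KO OXA, 57.5 to 1601 in KO vehicle, 803 to 1476 in WT OXA and 46.8 to 104 in WT vehicle. The part of these cells in the results above was not tested.

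Of 7 basal epithelial markers tested (8 listed, with Sox2 at 0 in every library) 2 rose and 3 fell in WT, beside 18% and 16% of all genes tested. Krt14 rose by 2.04 ± 0.20 (adjusted p = 4.22e-07) while Krt15 was at -2.38 ± 0.28 (adjusted p = 3.11e-06) and Col17a1 at -1.79 ± 0.21 (adjusted p = 2.62e-06). Sums of the list were 40833 to 66436 in KO OXA, 41377 to 46106 in KO vehicle, 31713 to 48002 in WT OXA and 36075 to 63844 in WT vehicle, ranges that overlap. Of 6 suprabasal markers tested (8 listed, with Sbsn and Rhcg at 0 in every library) 4 fell and 0 rose in WT, among them Krt78 at -2.53 and Dsg1a at -1.71, and limma, edgeR and DESeq2 called 0 in KO, where 0 had an unadjusted p under 0.05. In WT edgeR called 5 of the 6 lower and DESeq2 all 6. Of 8 muscle markers 3 fell in WT, led by Myh4 at -2.63, and of 6 fibroblast markers limma, edgeR and DESeq2 called 0 in WT (1 at an unadjusted p under 0.05 in limma, Col1a1 at 0.59 ± 0.26 (adjusted p = 0.0861)). Their part in the values of the 46 members was not tested.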

How the data were processed

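CEL-Seq libraries of mouse esophagus (16, in 4 groups of 4) were read from 1 deposited table. Per the submitters' processing notes, the authors used FastQC 0.11.5, Trim Galore, cutadapt 1.10, TopHat2 2.1.0, Bowtie2 2.2.6, HTSeq 0.6.1 and DESeq2 1.28.0, with GRCm38. The annotation release, the use of strand and the handling of molecular identifiers are not given in the sources used here. Whether reads of genes overlapping on opposite strands were kept apart is therefore not known. Each deposited value is a normalized signal, the count of a gene divided by the size factor of its library. Per library, 100% of values were whole multiples of 1 step (tolerance 0.1 of a read), and reads and depth were recovered from them. No 2 libraries of a group were alike within sampling noise (24 pairs, lowest chi-square per degree of freedom 13.7).

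The main test was limma 3.58.1 (R 4.3.3) on log2(value + 1), with 4 group means over all 16 libraries and a trended prior, two-sided, Benjamini-Hochberg adjusted over the 16748 genes that reached 5 in 4 or more libraries. Replicate numbers follow accession order and pair nothing. The script was first tested on simulated data. Alternatives were pseudocounts of 0.5 and 5, no filter (27009 genes), a filter of 20 (13871 genes), quantile normalization, equal library totals, only the groups compared (not for the interaction, which uses all 4), no trend, array weights, edgeR 4.0.16 and DESeq2 1.42.0 on recovered reads, reads thinned to 5.61 M (mega), each library left out in turn, and, chosen after seeing the data, the 2 OXA libraries with the most genes detected left out together. The members, the other lists and the rule for named genes were chosen with earlier results of these data known. The rule gave values in every library for Mki67, Top2a, Cdk1, Ccnb1, Aurkb and Cdc20, for the member of each role with the smallest p in WT, for members called in KO, and for the 8 with the smallest interaction p. It also named 3 genes of each other list and marker list, not all of which are printed above. Rrm2, Mcm3 and Mcm4 of DNA replication are among those left out.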

Additional observations from a re-analysis of the deposited data

Results flagged for a closer look

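Among the 46 members and 4 groups, 184 sets of 4 libraries were checked for a library that stands far from the other 3, measured as its gap to the nearest divided by the whole range, against Dixon's critical value for 4 samples. It was passed in 6 sets, and chance alone passes about 1 set in 20. Incenp, the scaffold of the passenger complex, had 347 in WT OXA replicate 4, above the 189 to 215 of the other WT OXA libraries. Plk1 had 69.5 in WT vehicle replicate 2, below the 147 to 155 of the others, and Hmmr had 44.8 in the same library, below 83.9 to 89.1. Cdca3 had 185 in KO OXA replicate 1, above 68.1 to 77.4, while Nuf2 had 64.2 in that library, below 110 to 116. Cenpe had 121 in KO vehicle replicate 1, above 81.4 to 83.7.

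The OXA effect differed between KO and WT, by the limma test of the difference itself, in 25 members, all with a smaller value in KO. Among regulators the log2 differences were -1.33 for Cdk1, -1.26 for Ccna2, -1.94 for Plk1 and -2.41 for Aurka. Among passenger and checkpoint genes they were -1.75 for Incenp, -1.94 for Birc5, -1.18 for Cdca8, -2.51 for Bub1, -0.99 for Mad2l1 and -2.33 for Ttk. At the step into anaphase and at the kinetochore they were -1.28 for Ube2c, -1.81 for Espl1, -2.48 for Ndc80 and -1.37 for Nuf2. Spindle and cytokinesis genes had -1.67 for Kif11, -1.16 for Tpx2, -1.57 for Nusap1, -1.02 for Kif23, -1.14 for Prc1, -1.14 for Racgap1 and -1.30 for Anln. Genes of chromosome structure had -2.23 for Mki67, -1.27 for Top2a, -1.60 for Smc4 and -3.22 for Ncapg.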

How the results depend on the processing

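Of the alternatives run, none turned the direction of a passed result. The 31 members that rose with OXA in WT numbered 20 without WT OXA replicate 4 and 33 without KO OXA replicate 1, the ends of the range with 1 library left out, and 24 without a filter, 24 without trend and 36 with equal library totals. The 0 that fell in WT became 1 with only the groups compared, and 0 to 1 with 1 library left out. The 1 that fell in KO became 0 without a filter, with only the groups compared and without trend, 2 without the 2 OXA libraries with the most genes detected (an alternative chosen after seeing the data), and 0 to 2 with 1 library left out. The 25 negative interactions numbered 17 to 35, and the 34 members lower in KO than in WT under OXA 27 to 41, with the lowest counts without WT OXA replicate 4 and the highest with equal library totals; the 0 higher there became 0 to 1 with 1 library left out. Over single members and alternatives, 6352 results kept their side of the threshold, 195 lost a call and 72 gained one. Direction was compared only where the main test or the alternative gave a call. Equal library totals moved the median of all genes by 0.31 in WT, -0.12 in KO, -0.43 for the interaction and -0.40 for KO against WT under OXA, and quantile normalization by -0.12 in WT. Members minus all genes then stood at 0.86 and 0.89 in WT, against 0.86 with the deposited scaling. The causes of these shifts were not tested. Depth limits the precision of low genes such as Bub1, with 203 reads over the 4 WT OXA libraries and 10 over the 4 WT vehicle libraries. No paired analysis was possible because replicate numbers follow accession order and pair no libraries.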
